A study of Homo sapiens with 12 samples.

Results

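The genes described here make, recycle and clear the deoxynucleotides from which DNA is built. They are RRM1, RRM2, RRM2B, TK1, TYMS, DUT, DCTPP1, DCK and SAMHD1, taken by symbol from a table of 59276 features. They make up 9 of those features, and all 9 were among the 11939 features that passed a filter on low values, which kept what reached 1 TPM in 3 or more libraries. The choice of genes included those with the largest falls from untreated cells to day 3, so RRM2, TK1 and TYMS were picked by their fall in these same libraries. For that reason the day 3 values are a description for all 9 genes, and RRM2, TK1 and TYMS are given no test against the untreated cells on any day. The difference between day 5 and day 2 rests on libraries that this choice did not use, and it is tested for all 9. Its spread is estimated over all 12 libraries, including those used in the choice. Fitted in limma on the compared groups alone, the adjusted p was 2.09e-08 for RRM2, 1.68e-07 for TK1 and 9.11e-08 for TYMS.

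Total RNA was sequenced from MM1S, a single human multiple myeloma cell line, in 12 libraries, 3 for each of 4 groups. One group was untreated, and the others spent 2, 3 and 5 days in 10 µM NGI-1, an inhibitor of the oligosaccharyltransferase that attaches N-glycans to proteins. The libraries labelled 0 day also carry NGI-1 as their treatment label. They are called untreated because the study's text does so, and whether they received solvent, or when they were harvested, is not settled. The labels do not say whether the 3 libraries of a group came from separate cultures, so p-values measure the spread between these libraries, which may be technical. No untreated library belongs to a later day, so days in culture and days in NGI-1 cannot be told apart. The values are log2(TPM + 1), where TPM is a length-corrected share of all transcripts in a library and can be compared between genes.

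Ribonucleotide reductase converts ribonucleotides to deoxyribonucleotides and is a tetramer of large subunits, RRM1, with small subunits, RRM2 or RRM2B. RRM2 is made for S phase, while RRM2B, a target of p53, supplies cells outside S phase. Thymidylate comes either from TYMS, which methylates dUMP, or from the salvage of thymidine by thymidine kinase, TK1 in the cytosol and TK2 in mitochondria. DCK salvages deoxycytidine and deoxypurines, DUT removes dUTP and gives TYMS its substrate, DCTPP1 hydrolyses dCTP and its modified forms, and SAMHD1 breaks deoxynucleoside triphosphates down outside S phase.

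The stretches before the transcription starts of RRM2, TK1 and TYMS are shown because these were the 3 genes with the largest falls at day 3. Sequences are from RefSeq on GRCh38.p14, 150 bases up to the start near which most annotated transcripts begin, written 5′ to 3′ on the strand of the gene. They lie at chr2:10122589-10122738 on the plus strand for RRM2, chr17:78187053-78187202 on the minus strand for TK1 and chr18:657503-657652 on the plus strand for TYMS. Capitals mark CCAAT in RRM2, its reverse complement ATTGG in TK1, and GCGGGAAA, the reverse complement of the E2F motif TTTCCCGC, in TYMS.
RRM2: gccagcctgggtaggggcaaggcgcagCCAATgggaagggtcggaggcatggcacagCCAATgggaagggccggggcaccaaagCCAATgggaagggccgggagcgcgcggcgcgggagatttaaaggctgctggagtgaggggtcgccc
TK1: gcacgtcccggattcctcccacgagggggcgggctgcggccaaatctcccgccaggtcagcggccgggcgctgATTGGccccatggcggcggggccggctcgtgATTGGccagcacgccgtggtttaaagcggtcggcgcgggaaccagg
TYMS: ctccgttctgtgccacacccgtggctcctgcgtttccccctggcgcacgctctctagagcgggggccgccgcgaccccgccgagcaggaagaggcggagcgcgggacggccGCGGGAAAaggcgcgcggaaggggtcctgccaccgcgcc

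RRM2 held CCAAT 3 times, beginning 123, 93 and 66 bases before its start, and each copy opened the same 13-base run, ccaatgggaaggg. That run stood at least once in 10 of the 35116 RefSeq windows of 300 bases and at least 3 times in 1 of them, the window of RRM2. TK1 held the CCAAT box on the other strand at 77 and 46 bases before its start. CCAAT, read on both strands, was found in 34.6% of all windows and in the windows of 4 of the 8 genes that have one, RRM1, RRM2, TK1 and SAMHD1. At least 2 copies were found in 10.8% of all windows. The motif TTTCCCGC was found in 1.63% of all windows and among the chosen windows only in that of TYMS, 39 bases before the start. The other E2F motif searched, TTTGGCGC, stood in the window of DCK and in 0.652% of all windows. Of the cell cycle homology motifs, TTTGAA stood in the window of RRM1 and in 15.2% of all windows, and TTCGAA in none of the 8 and in 1.45% of all. Counts over the 8 genes use 1 window per gene, at a start near which most annotated transcripts begin. A DUT window that was not used, at chr15:48331947-48332246, held TTTCCCGC, TTTGGCGC and 2 copies of TTTGAA. All of these are matches of letters and not tests of binding.

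The 8 plasma cell markers examined, among them SDC1, TNFRSF17, IRF4 and XBP1, were present in all 12 libraries, the lowest value being 14.9 TPM for CD38. Of 8 markers of other cell types, CD3D and EPCAM were at 0 in all 12 libraries. LYZ, CD14, HBB, COL1A1 and MS4A1 reached at most 1.14 TPM, and CD3E lay between 2.75 and 7.22 TPM. Ribosomal protein genes took 28.6% ± 0.531 (SD, n = 3) of TPM in untreated cells and 48.4% ± 0.858 (SD, n = 3) at day 5, and mitochondrially encoded features 9.95% and 14.2%. TPM is a share, so a larger share for some features leaves less for the rest. Against untreated cells the median log2 difference of all 11939 features was -0.18 at day 2, -0.73 at day 3 and -0.99 at day 5. From day 2 to day 5 the median was -0.83. How far the ribosomal protein and mitochondrial shares account for these medians was not tested. Differences are therefore also given after rescaling, in which 1 factor per library sets the median log2 ratio of 5422 abundant features present in every library to 0. In bulk RNA, fewer cells of a kind and less of a transcript per cell cannot be told apart.

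The small subunit RRM2 (chr2:10120698-10131419, plus strand) was the most abundant of the 9 transcripts in untreated cells and after 2 days, and among the 3 least abundant after 5 days. Its level in the untreated libraries was 486, 450.4 and 463 TPM. After 2 days of NGI-1 it was 116, 149 and 122 TPM, after 3 days 4.87, 7.64 and 7.39 TPM, and after 5 days 1.65, 1.28 and 1.01 TPM. No library of one group overlapped any library of another, and each later group was lower. The share of all features with this order over the 4 groups was not counted. All day 3 libraries lay below all untreated ones in 70.5% of tested features, and all day 5 below all day 2 libraries in 76.8%. From day 2 to day 5 RRM2 fell by 5.82 ± 0.15 (SE) on the log2 scale (limma, adjusted p = 1.31e-11, 95% interval -6.14 to -5.49). This was the lowest of 11939 differences. Day 5 levels lie close to the pseudocount of 1, which shortens such a difference, and with a pseudocount of 0.1 it was -6.53. After rescaling it was -5.02.

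TK1 (chr17:78174075-78187233, minus strand), the cytosolic thymidine kinase, stood at 129, 101 and 105 TPM in untreated libraries and at 23.7, 29.3 and 24.3 TPM after 2 days. It was at 1.53, 1.47 and 1.17 TPM after 3 days and at 1.09, 0.878 and 0.442 TPM after 5 days. The lowest day 3 library lay just above the highest day 5 library, so that little of the fall remained after day 3. TK1 fell by 3.90 ± 0.15 (SE) on the log2 scale from day 2 to day 5 (limma, adjusted p = 2.57e-10), the 16th lowest of 11939 differences. With a pseudocount of 0.1 the difference was -4.91.

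TYMS (chr18:657604-673578, plus strand), thymidylate synthase, stood at 135, 148 and 137 TPM in untreated libraries and at 25.2, 24.1 and 25.5 TPM after 2 days. It was at 1.935, 2.63 and 1.54 TPM after 3 days and at 1.175, 0.741 and 0.628 TPM after 5 days. As for RRM2 and TK1, which were likewise picked by their fall, the groups did not overlap and each later group was lower. TYMS fell by 3.82 ± 0.14 (SE) on the log2 scale over the same interval (limma, adjusted p = 1.83e-10), the 21st lowest of 11939 differences. ENOSF1, a gene on the opposite strand that overlaps TYMS, went from 7.86 TPM in untreated cells to 2.07 TPM at day 5, and TYMSOS, also on that strand, from 0.910 to 0.0271 TPM. Whether reads were counted by strand is not given in the sources used here, so reads of TYMS and of these genes may not have been told apart.

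The large subunit RRM1 (chr11:4094707-4138876, plus strand) fell in every interval, and by less than RRM2 after day 2. It was at 97.04, 96.7 and 92.7 TPM in untreated libraries and at 25.01, 25.4 and 23.8 TPM after 2 days. It was at 7.14, 7.02 and 6.98 TPM after 3 days and at 4.60, 4.785 and 5.25 TPM after 5 days. The 4 groups did not overlap, and how common that order is among all features was not counted. RRM1 fell by 1.91 ± 0.09 (SE) on the log2 scale from untreated cells to day 2 (limma, adjusted p = 5.61e-09), by 4.04 ± 0.09 to day 5 (adjusted p = 3.08e-13) and by 2.13 ± 0.09 from day 2 to day 5 (adjusted p = 4.39e-10). It was called lower on the rescaled values too, with differences of -1.66, -2.85 and -1.19.

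RRM2B (chr8:102204502-102239118, minus strand), the small subunit used outside S phase, stayed within a narrow range of TPM. It was at 11.2, 10.95 and 11.7 TPM in untreated libraries, at 13.3, 11.6 and 11.4 TPM after 2 days, at 13.6, 13.7 and 12.7 TPM after 3 days and at 9.97, 12.2 and 13.0 TPM after 5 days. Day 5 libraries lay on both sides of the untreated ones. The difference from untreated cells was 0.09 at day 2 (limma, adjusted p = 0.543, 95% interval -0.15 to 0.33) and 0.04 at day 5 (adjusted p = 0.733, 95% interval -0.20 to 0.29). From day 2 to day 5 it was -0.05 (adjusted p = 0.699, 95% interval -0.29 to 0.20). On the rescaled values, where the median feature is set to no change, RRM2B was called higher, by 1.23 from untreated cells to day 5 (adjusted p = 6.61e-08) and by 0.93 from day 2 to day 5 (adjusted p = 2.51e-06).

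**Figure D1:**
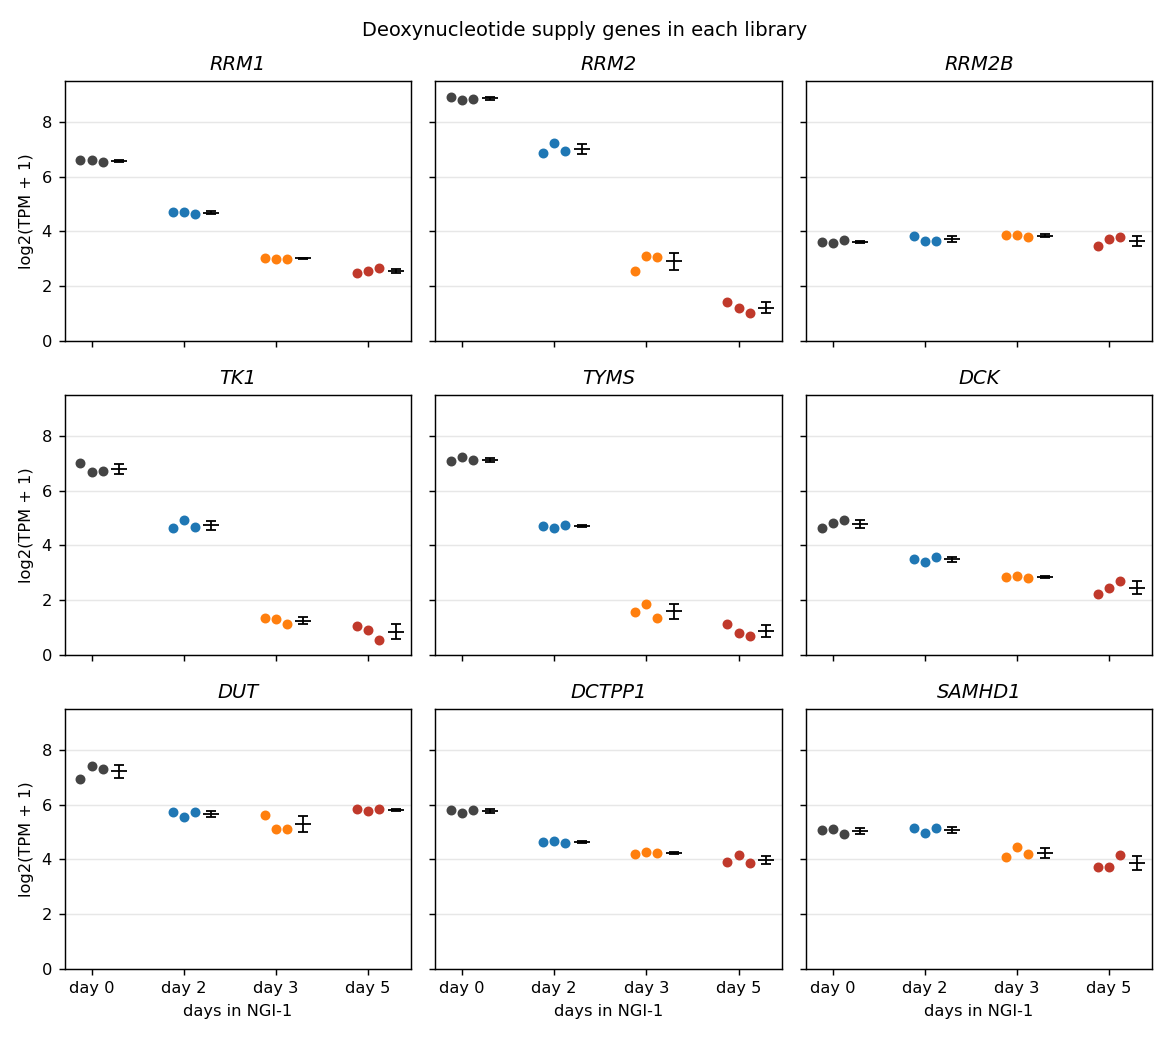
Level of each of the 9 deoxynucleotide supply genes in each library, as log2(TPM + 1), against days in NGI-1, with day 0 standing for untreated cells. Points are libraries, bars are the mean and SD of 3 libraries; RRM2 falls from a mean of 8.87 to 1.20 while RRM2B stays between 3.62 and 3.84.

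The 2 small subunits therefore changed places, and the share of RRM2B in the sum of RRM2B and RRM2 does not depend on how a library is scaled. That share was 2.25%, 2.37% and 2.47% in untreated libraries and 10.3%, 7.22% and 8.54% after 2 days. After 3 days it was 73.6%, 64.2% and 63.3%, and after 5 days 85.8%, 90.5% and 92.8%. RRM2 thus made up nearly all small subunit transcripts at the start and a minority of them from day 3. The summed level of both fell from 478 ± 18.3 (SD, n = 3) to 13.0 ± 1.24 TPM (SD, n = 3), since RRM2B did not rise in TPM to replace RRM2.

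Other within-library ratios showed how unevenly the genes moved. The log2 ratio of RRM1 to RRM2, taken as the difference of their log2(TPM + 1) values, was -2.28 ± 0.06 (SD, n = 3) in untreated cells and -2.33 ± 0.17 (SD, n = 3) at day 2, so both subunits had lost a similar share by then. It was 0.10 ± 0.33 (SD, n = 3) at day 3 and 1.36 ± 0.28 (SD, n = 3) at day 5, when the large subunit transcript exceeded that of RRM2. From day 2 to day 5 the log2 ratio rose by 3.68 for RRM1 to RRM2, by 5.77 for RRM2B to RRM2 and by 4.61 for SAMHD1 to RRM2. The ratio of DCK to TK1 rose by 2.87 and that of TK2 to TK1 also by 2.87. Day 5 levels of RRM2 and TK1 lie close to the pseudocount of 1, which shortens these rises. With a pseudocount of 0.1 the TK1 ratios rose by 3.73 for DCK and 3.58 for TK2. The RRM2 ratios then rose by 4.21 for RRM1, 6.48 for RRM2B and 5.27 for SAMHD1. The ratio of DCTPP1 to DUT fell by 0.81. The day 2 and day 5 libraries did not overlap in any of these 6 ratios, and each gave p = 0.1 in an exact two-sided permutation test (adjusted over the 7 ratios computed, 0.1). That is the smallest p that 3 libraries against 3 can give, so this test cannot pass 0.05.

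**Figure D2:**
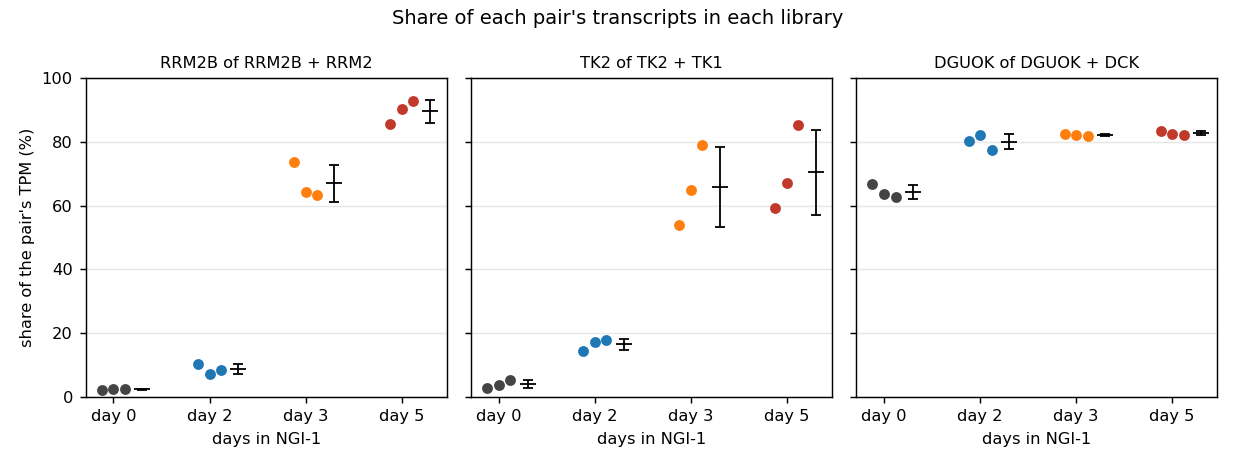
Share of TPM taken by one gene of a pair in each library, in percent, against days in NGI-1, with day 0 standing for untreated cells. Points are libraries and bars the mean and SD of 3 libraries; the share of RRM2B goes from 2.36% to 89.7%, that of TK2 from 3.88% to 70.6% and that of DGUOK from 64.4% to 82.8%.

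Thymidine kinase showed a like exchange at lower levels. TK2 held 3.88% ± 1.24 (SD, n = 3) of the sum of TK1 and TK2 in untreated cells and 16.5% ± 1.84 (SD, n = 3) at day 2. It held 65.9% ± 12.5 (SD, n = 3) at day 3 and 70.6% ± 13.4 (SD, n = 3) at day 5, and the libraries of these last 2 groups overlapped. TK2 itself did not rise: its mean was 4.42 TPM in untreated cells and 1.98 TPM at day 5. For the kinases of deoxycytidine and the deoxypurines, the share of the mitochondrial DGUOK beside DCK went from 64.4% ± 2.13 (SD, n = 3) to 80.06% ± 2.34 (SD, n = 3) by day 2 and was 82.8% ± 0.650 (SD, n = 3) at day 5.

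DCK (chr4:70992538-71030914, plus strand) also activates nucleoside drugs such as cytarabine. It was at 23.6, 27.05 and 29.3 TPM in untreated libraries and at 10.3, 9.56 and 11.02 TPM after 2 days. After 3 days it was at 6.25, 6.43 and 6.04 TPM, and after 5 days at 3.68, 4.46 and 5.50 TPM. The groups did not overlap, an order whose share over all features was not counted. DCK fell by 1.29 ± 0.13 (SE) on the log2 scale by day 2 (limma, adjusted p = 4.52e-06), by 2.33 ± 0.13 by day 5 (adjusted p = 1.6e-09) and by 1.04 ± 0.13 from day 2 to day 5 (adjusted p = 7.38e-06). Relative to other transcripts the later fall was small, -0.13 after rescaling (adjusted p = 0.301). MOB1B, which overlaps DCK on the same strand, went from 12.9 to 3.69 TPM over the same groups.

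DUT (chr15:48331011-48343373, plus strand) was the second most abundant of the 9 transcripts in untreated cells and the most abundant from day 3. It was at 122, 169.8 and 157 TPM in untreated libraries, at 52.9, 45.4 and 51.7 TPM after 2 days, at 48.8, 33.3 and 34.0 TPM after 3 days and at 56.1, 53.6 and 55.9 TPM after 5 days. Its fall was over by day 3, and the day 5 libraries all lay above those of day 3 and of day 2, as was so for 3.45% and 6.28% of all tested features. DUT fell by 1.55 ± 0.15 (SE) on the log2 scale by day 2 (limma, adjusted p = 2.2e-06) and by 1.41 ± 0.15 by day 5 (adjusted p = 6.46e-07). The difference from day 2 to day 5 was 0.14 (adjusted p = 0.367, 95% interval -0.17 to 0.46), and after rescaling it was 1.18 (adjusted p = 7.17e-05). The difference between untreated cells and day 5 was -0.13 after rescaling (adjusted p = 0.504). DUT and TYMS, consecutive steps on the way to dTMP, thus stood at overlapping levels in untreated cells and far apart at day 5.

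DCTPP1 (chr16:30423619-30430075, minus strand) was at 55.2, 51.2 and 55.1 TPM in untreated libraries and at 23.8, 24.7 and 23.5 TPM after 2 days. It was at 17.5, 18.2 and 18.01 TPM after 3 days and at 13.8, 16.9 and 13.8 TPM after 5 days. Most of this fall came in the first 2 days. DCTPP1 fell by 1.13 ± 0.10 (SE) on the log2 scale by day 2 (limma, adjusted p = 7.71e-07). Its difference from untreated cells was -1.80 ± 0.10 (SE) at day 5 (adjusted p = 8.94e-10), and that from day 2 to day 5 was -0.67 ± 0.10 (SE, adjusted p = 2.19e-05). The last difference was smaller than that of the median feature and was 0.34 after rescaling, under the threshold of 0.5.

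SAMHD1 (chr20:36889773-36951901, minus strand), which removes what the other enzymes make, kept its share for 2 days. It was at 32.8, 33.7 and 29.5 TPM in untreated libraries and at 34.4, 29.98 and 34.7 TPM after 2 days. After 3 days it was at 16.2, 20.9 and 17.2 TPM, and after 5 days at 12.3, 12.3 and 17.0 TPM. Untreated and day 2 libraries overlapped, day 3 and day 5 libraries overlapped, and the later pair lay below the earlier pair. Its difference at day 2 was 0.04 (limma, adjusted p = 0.811, 95% interval -0.25 to 0.33). It fell by 1.16 ± 0.13 (SE) on the log2 scale from untreated cells to day 5 (adjusted p = 1.9e-06) and by 1.21 ± 0.13 from day 2 to day 5 (adjusted p = 2.31e-06). After rescaling these were 0.07 (adjusted p = 0.548) and -0.20 (adjusted p = 0.084), close to the median feature.

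Genes were called where the log2 difference exceeded 0.5 in size and the adjusted p was below 0.05. Over the 9 genes, 7 were called lower from day 2 to day 5 by limma and 0 higher, also 0 at an unadjusted p under 0.05. Of all tested features 69.8% were called lower and 4.35% higher, so this count is near the background and is no result about these genes. The same 7 had every day 5 library below every day 2 library, as had 76.8% of all tested features. The median of all 9 genes was -1.21 against -0.83 over all tested features. After rescaling, RRM2, TK1, TYMS and RRM1 were called lower, 4 of 9 where 15.3% of features were, and RRM2B and DUT higher, 2 of 9 where 20.7% were. RRM2, TK1 and TYMS were picked by their fall to day 3, so no excess for the group is read from the 4 of 9. Among the other genes only RRM1 was called lower. The RRM2, TK1, TYMS and RRM1 calls also held when TPM was recomputed without 77 ribosomal protein genes and 37 mitochondrial features, with differences of -5.71, -3.95, -3.84 and -1.70.

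**Figure D3:**
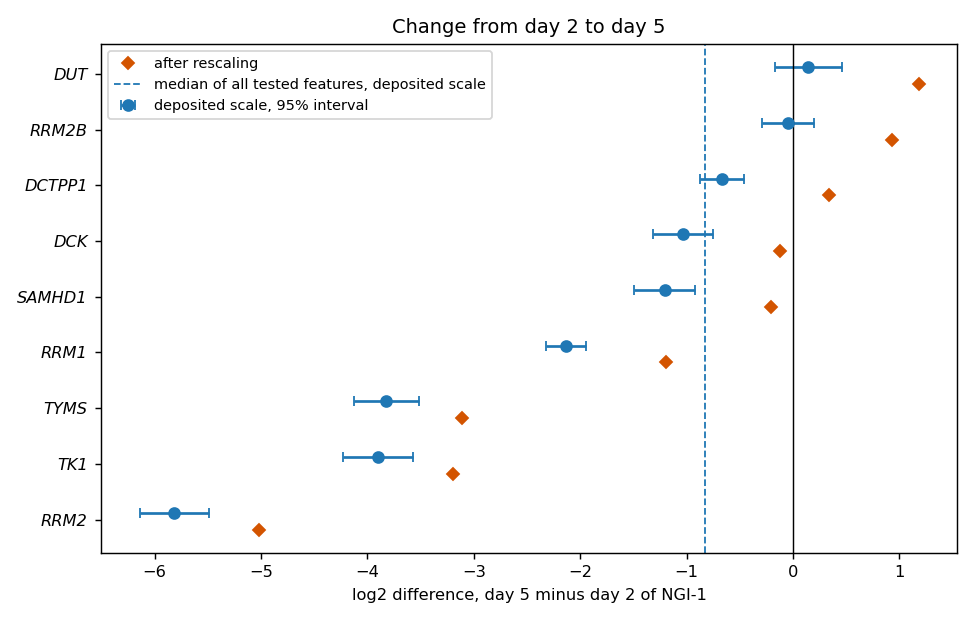
Difference from day 2 to day 5 of NGI-1 for each of the 9 genes, on the log2 scale. Circles with 95% intervals are values on the deposited scale, diamonds are values after rescaling and the dashed line is the median of all 11939 tested features, -0.83; RRM2, TK1, TYMS and RRM1 lie left of 0 on both scales.

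Against untreated cells the test covers RRM1, RRM2B, DUT, DCTPP1, DCK and SAMHD1. At day 2, 4 of these 6 were called lower, RRM1, DUT, DCTPP1 and DCK, where 23.2% of all tested features were. The same 4 were called after rescaling, where 11.2% were, and their fall at day 2 was thus larger than that of most transcripts. At day 5, 5 of 6 were called lower, near the 69.8% of all features. After rescaling RRM1, DCTPP1 and DCK were lower, where 24.6% of features were, and RRM2B was higher, where 29.1% were. RRM2, TK1 and TYMS, given without a test, differed from untreated cells by -1.85, -2.07 and -2.44 at day 2 and by -7.67, -5.97 and -6.26 at day 5. The comparisons of day 2, day 3 and day 5 with untreated cells share the same 3 untreated libraries.

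At day 3, the comparison used to choose the genes, 8 of the 9 had all treated libraries below all untreated ones, as had 70.5% of all tested features, and nothing is read from that count. The differences were -5.96 for RRM2, -5.55 for TK1 and -5.55 for TYMS, followed by -3.58 for RRM1. DUT and DCK both differed by -1.93, DCTPP1 by -1.53 and SAMHD1 by -0.79. RRM2B, the exception, differed by 0.22. Among 5433 features averaging 10 TPM or more, RRM2, TK1 and TYMS held the first 3 places by size of fall. Just outside them stood ARHGAP11A at -5.34 and NUSAP1 at -5.31, the latter a spindle protein.

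The genes also differed in when they lost their share, a description in which the day 5 difference from untreated cells is taken as the whole. RRM2 had reached 24.2% of it by day 2 and 77.7% by day 3. TK1 had reached 34.7% and 93.0%, TYMS 39.0% and 88.7%, and RRM1 47.2% and 88.7%. DCK and DCTPP1 were further on by day 2, at 55.5% and 63.0% on the deposited scale. After rescaling the day 2 figures were 24.3% for RRM2, 36.3% for TK1, 41.3% for TYMS and 58.2% for RRM1. For DCK the figure was then 89.3%, and for DCTPP1 it was 160.3%, as its rescaled difference was larger at day 2 than at day 5. SAMHD1 had not begun to fall by day 2 and stood at 68.2% by day 3 on the deposited scale, while its rescaled values showed no fall at day 5 to divide. RRM2 fell by a further 1.71 on the log2 scale from day 3 to day 5, TYMS by 0.71 and TK1 by 0.42. Those last values lie near the pseudocount.

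The order of the levels, compared as TPM, was thereby rearranged. In untreated cells it ran RRM2, DUT, TYMS, TK1, RRM1, DCTPP1, SAMHD1, DCK and RRM2B, and only DUT and TYMS overlapped as neighbours. At day 2 RRM2 and DUT still led, SAMHD1 had moved to the third place, and TK1, TYMS, RRM1 and DCTPP1 each overlapped the next at means between 23.98 and 25.8 TPM. At day 3 DUT led, and RRM1, RRM2 and DCK overlapped in turn. At day 5 it ran DUT, DCTPP1, SAMHD1, RRM2B, RRM1, DCK, RRM2, TYMS and TK1. There DCTPP1, SAMHD1 and RRM2B overlapped in turn, RRM1 overlapped DCK, and RRM2, TYMS and TK1 overlapped in turn.

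Other nucleotide genes were read from 5 lists of 53 symbols, of which 51 were tested. The lists cover the folate and thymidylate cycle, the remaining salvage and nucleotide kinase genes, nucleotide breakdown, and pyrimidine and purine synthesis. At day 2, 28 of the 51 were called lower than in untreated cells and 2 higher, where 23.2% and 8.03% of all features were, and their median was -0.55 against -0.18. At day 5, 43 were lower and 1 higher, where 69.8% and 7.73% of all features were, and their median was -1.54 against -0.99. Between day 2 and day 5, 43 were lower and 0 higher by limma, 1 at an unadjusted p under 0.05, where 69.8% and 4.35% of all features were called, and their median was -1.08 against -0.83. On the rescaled values 16 were lower at day 2, 24 at day 5 and 17 between day 2 and day 5, where 11.2%, 24.6% and 15.3% of all features were. The counts of higher genes were then 5, 9 and 7, where 13.0%, 29.1% and 20.7% of all features were. None of these genes fell as far as RRM2, TK1 or TYMS from day 2 to day 5.

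In the folate and thymidylate cycle 9 of 10 genes were lower from day 2 to day 5, with a median of -1.45, where 69.8% of all features were lower. After rescaling 6 were lower and 1 higher, with a median of -0.63. At day 5, 8 of 10 were lower than in untreated cells, with a median of -2.01. On the deposited scale MTHFD2, a mitochondrial folate enzyme, was the member not called, at -0.47, and after rescaling it was called higher, at 0.57.

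Among 12 other salvage and kinase genes 10 were lower from day 2 to day 5 and the median was -0.96, close to the 69.8% and -0.83 of all features. After rescaling 2 were lower and 2 higher, with a median of 0.01. DTYMK, which phosphorylates the dTMP made by both TYMS and TK1, fell by 1.37 on the log2 scale (limma, adjusted p = 6.58e-08), and its difference from untreated cells at day 5 was -2.81 (adjusted p = 1.63e-11). After rescaling the first of these was -0.37 and was not called, and the second was -1.56 and was called. NME1 and NME2 are closely related genes, and how well their reads were told apart was not tested, so their values are uncertain. CMPK2, a mitochondrial UMP-CMP kinase, was the exception at day 2. It rose from 0.310 ± 0.134 (SD, n = 3) to 1.73 ± 0.388 TPM (SD, n = 3), a difference of 1.06, and stood at 0.338 ± 0.0896 TPM (SD, n = 3) at day 5. CMPK2 passed the filter on low values only through its day 2 libraries. Its highest library was at 0.465 TPM in untreated cells, 0.89 TPM at day 3 and 0.395 TPM at day 5. These values are therefore a description.

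Of 10 breakdown and pool cleaning genes tested 6 were lower from day 2 to day 5, with a median of -0.70, a smaller share than the 69.8% of all features. The direction turned after rescaling, with 2 lower, 3 higher and a median of 0.32. NUDT1, which removes oxidised purine nucleotides, fell by 1.72 on the log2 scale (limma, adjusted p = 5.23e-07), and its difference from untreated cells at day 5 was -2.88 (adjusted p = 1.42e-09). TYMP, which cleaves thymidine and so opposes TK1, rose from 12.5 ± 1.46 (SD, n = 3) to 31.2 ± 3.03 TPM (SD, n = 3) at day 2 and was at 21.9 ± 2.24 TPM (SD, n = 3) at day 5. Its differences from untreated cells were 1.26 (limma, adjusted p = 1.61e-06) and 0.77 (adjusted p = 2.43e-05). It was the single gene of the lists called higher at day 5 on the deposited scale.

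For pyrimidine synthesis 4 of 5 genes and for purine synthesis and salvage 14 of 14 were lower from day 2 to day 5, with medians of -1.30 and -1.31, where 69.8% of all features were lower. The largest falls were those of CTPS1, which makes CTP, at -1.83 (limma, adjusted p = 5.58e-07), and of IMPDH1, on the route to guanine nucleotides, at -2.04 (adjusted p = 4.99e-08). From untreated cells to day 5 they were those of CTPS1 at -2.71 (adjusted p = 5.23e-09) and of GMPS, the enzyme after IMPDH1 on that route, at -3.02 (adjusted p = 4.64e-10). After rescaling, 2 of 5 and 5 of 14 were lower from day 2 to day 5, where 15.3% of all features were.

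**Figure D4:**
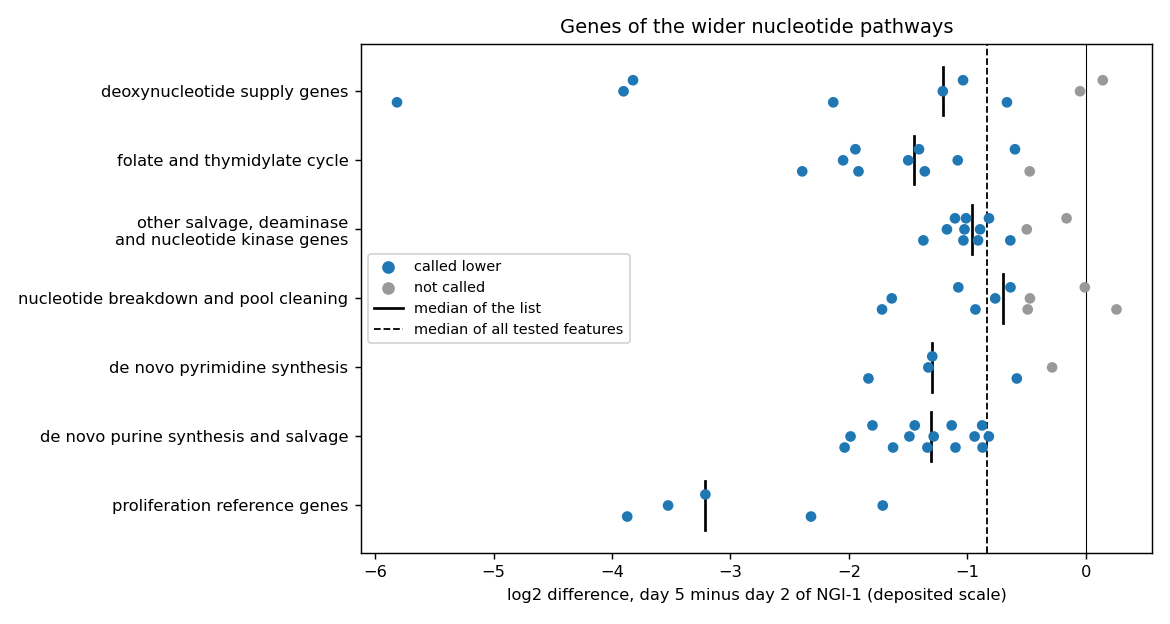
Difference from day 2 to day 5 of NGI-1 on the log2 scale for the 9 deoxynucleotide supply genes, the 5 lists of other nucleotide genes and 5 proliferation genes. Each point is a gene, blue where called lower and grey where not called, short bars are list medians and the dashed line is the median of all tested features, -0.83; RRM2, TK1 and TYMS lie at the left, with the proliferation genes nearest to them.

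The 5 genes used to mark cycling cells, MKI67, PCNA, TOP2A, CCNA2 and MCM2, moved with the steepest of the 9. All 5 were called lower in each of the comparisons of day 2 and day 5 with untreated cells and of day 5 with day 2, on both scales. Of all tested features 23.2%, 69.8% and 69.8% were called lower in these comparisons, in that order, on the deposited scale. After rescaling 11.2%, 24.6% and 15.3% were. The median of the 5 genes from day 2 to day 5 was -3.21. TOP2A fell most, at -3.87 (limma, adjusted p = 1.71e-10), and at -5.56 from untreated cells to day 5 (adjusted p = 7.34e-13). Their part in the falls of RRM2, TK1 and TYMS was not tested.

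The features with the most similar course were found by the root mean square difference over 12 libraries, after subtracting each feature's untreated mean, among 7525 features averaging 5 TPM or more. Nearest to RRM2 came NUSAP1 at 0.58, then UBE2C, TYMS, MYBL2 and TPX2. Nearest to TK1 came MYBL2 at 0.25, then TYMS at 0.28, CDCA5, TPX2 and BUB1B. Nearest to TYMS came MYBL2 at 0.21, then TK1 at 0.28, CDCA5, ARHGAP11A and TPX2. TK1 was thus second on the list of TYMS and TYMS second on that of TK1, while TK1 stood in the sixth place for RRM2. The 12 libraries include the untreated and day 3 libraries by whose difference these genes were picked. Their nearness to each other and to other genes with large falls is therefore a description. Nearest to RRM2B came CAMLG at 0.07, then SNHG29, PLEKHF2, LAPTM4B and SNHG6, all features with little change in TPM, and RRM2 stood at place 7524 of 7525 from it. RRM1, the partner of RRM2 in the enzyme, stood at place 110 from it, at 2.18.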

How the data were processed

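Total RNA of MM1S cells was sequenced in 12 libraries. Per the labels, 200 ng was used and over 60 M read pairs were obtained for each. The authors deposited log2(TPM + 1) values per gene symbol. The submitters' processing notes name FastQC, Trimmomatic, STAR and Salmon with the build hg38. Their versions, the annotation and how transcripts were summed to genes are not given in the sources used here. TPM keeps no read counts, so counting error is unknown, no interval or floor for counting is given, and precision is read from 3 libraries per group. Pearson's r between replicates lay between 0.985 and 0.992 across features, which are not independent replicates. The table held 0 columns of other samples.

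What reached 1 TPM in 3 or more libraries was fitted in limma 3.58.1 (R 4.3.3), with 1 mean per group, a mean-variance trend, two-sided tests and Benjamini-Hochberg adjustment over 11939 features. A call needed a log2 difference beyond 0.5 in size with an adjusted p below 0.05. For rescaling, library factors were chosen so that, against the average library, the median log2 ratio of the 5422 features above 0 in every library, out of 5433 averaging 10 TPM or more, was 0. Ratios within a library were compared by exact permutation tests. Scripts were tested on simulated data. Alternatives were a pseudocount of 0.1, a TPM minimum of 5, no filter, rescaling, TPM without ribosomal protein and mitochondrial features, a threshold of 1, fits on the compared groups alone, no trend and each library left out.

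The genes and lists were chosen with earlier results of these data known. Named genes are all 9 members, the largest called rise and fall in each list from day 2 to day 5 and from untreated to day 5, the 5 features nearest in pattern to RRM2, TK1, TYMS and RRM2B, and the 5 largest falls at day 3. Genes named beside these, such as TK2, DGUOK, MTHFD2 and CMPK2, were chosen as members of a ratio pair or after their values were seen. Gene coordinates are from GENCODE on GRCh38. Of 13 pseudogenes of these genes, belonging to 3 of them, none exceeded 0.487 TPM. Protein measurements of the study were not analysed here, and not every named gene or ratio that this rule gives is reported here.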

Additional observations from a re-analysis of the deposited data

Results flagged for a closer look

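Among the 9 genes and those named beside them for a ratio or as an exception, 4 met a rule on day 2 and day 5. Their difference from untreated cells changed between these days, by the limma test of day 5 against day 2. They were called against untreated cells on one of those days and not on the other. Of all tested features 23.2% were called lower and 8.03% higher at day 2. At day 5, and also from day 2 to day 5, 69.8% were called lower. How many features meet the same rule was not counted, so these 4 are a description. The day 5 difference minus the day 2 difference was -1.21 for SAMHD1 (adjusted p = 2.31e-06), which differed from untreated cells by 0.04 at day 2 and by -1.16 at day 5. For TK2, the mitochondrial thymidine kinase, it was -1.03 (adjusted p = 0.000996), from 0.18 to -0.85. For DGUOK, the mitochondrial deoxyguanosine kinase, it was -0.91 (adjusted p = 4.63e-06), from -0.21 to -1.12. For CMPK2 it was -1.02, from 1.06 to 0.03, and CMPK2 was the gene among these 4 that rose at day 2. CMPK2 passed the filter on low values only through its day 2 libraries, so its calls carry no weight as tests. In each of the 4 genes every day 5 library lay below every day 2 library, as in 76.8% of all tested features. After rescaling, the differences were -0.20 for SAMHD1, -0.25 for TK2, 0.11 for DGUOK and -0.60 for CMPK2, and that of CMPK2 alone was still called. The median of all tested features over the same interval was -0.83 on the deposited scale.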

How the results depend on the processing

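Of 724 alternative values over 41 results, 682 were rated as kept and 24 as moved, 6 lost and 4 gained a call, and 8 changed sign. For single genes, 402 of 420 kept their direction and side of the threshold. A count was rated as kept within a set factor of the main count, and a ratio where its sign held. The day 3 median was rated as kept within the SD between libraries. Rescaling to the same median left 4 genes lower and 2 higher from day 2 to day 5, and 3 lower and 1 higher of 6 from untreated cells to day 5. For the lists, lower calls were then 16 at day 2, 24 at day 5 and 17 from day 2 to day 5, higher calls 5, 9 and 7, and the median of the 9 genes at day 3 was -1.09 in place of -1.93. Without ribosomal protein and mitochondrial features, 1 gene was higher from day 2 to day 5, DUT, and 1 from untreated cells to day 5, RRM2B. The lists then had 4 higher at day 2, 2 at day 5 and 1 from day 2 to day 5, and the day 3 median was -1.55. Lower calls in the lists were then 21 at day 2, 36 at day 5 and 31 from day 2 to day 5. A threshold of 1 left 10 list genes lower at day 2, 37 at day 5 and 30 from day 2 to day 5, and 0 higher at day 5. A TPM minimum of 5 left 1 higher at day 2, and a pseudocount of 0.1 gave a day 3 median of -2.07. The sign changed for called differences after rescaling, DCTPP1 from day 2 to day 5 (0.34 in place of -0.67) and SAMHD1 from untreated cells to day 5 (0.066 in place of -1.16), and for differences not called: RRM2B from day 2 to day 5 (0.93 rescaled, 0.49 without ribosomal protein and mitochondrial features, 0.017 without day 2 replicate 1 and 0.054 without day 5 replicate 1, in a range of -0.12 to 0.054 with each library left out), RRM2B from untreated cells to day 5 (-0.030 without day 5 replicate 3, range -0.030 to 0.14) and SAMHD1 from untreated cells to day 2 (-0.012 without untreated replicate 3, range -0.012 to 0.11). With each library left out, counts of lower calls stayed at 4, 5 and 7 for the genes and at 25 to 28, 42 to 44 and 43 to 47 for the lists at day 2, at day 5 and from day 2 to day 5, and the day 3 median lay between -2.11 and -1.89. The ratio of RRM2B to RRM2 then rose by 5.60 to 5.97. The cause of these shifts was not tested. No paired analysis was possible because the library names carry no replicate numbers shared between groups. TPM shows shares and not amounts per cell, and levels near 1 TPM set the size of a fall less firmly than higher ones.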
